A study of Mus musculus with 12 samples.

Results

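Cd55 and 5 related genes, Cd46, Cr1l, Cd59a, C3ar1 and C5ar1, encode membrane proteins that restrain complement or sense its fragments, and their RNA was followed across 4 sorted populations of CD4+ T cells from mouse Peyer's patches. Each of the 6 genes was found by its symbol with 1 probe set annotated to it alone, of 19937 genes on the array. Cd55 was chosen by its measured difference between T follicular helper (Tfh) cells and the other gates, one of the lowest of all genes, so that difference is given as a description with no test. The rule gives no measured value as the ground for the other 5, which share a role with Cd55, though the set was drawn up with earlier results of these data known. Their differences are tested where their signal passed the filter on low values.

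Complement is a cascade of blood proteins in which convertase enzymes on a cell surface cleave C3 and C5, which coats the cell and opens pores in it. CD55 (decay-accelerating factor) takes the convertases apart, CD46 is a cofactor for cutting C3b and C4b, and the mouse protein CRRY, encoded by Cr1l, does both. CD59 blocks the pore, and C3ar1 and C5ar1 encode the receptors for the small fragments C3a and C5a. In mice CRRY is broadly expressed, whereas Cd46 is known mostly from testis, and T cells of mice that lack CD55 are known to respond more strongly.

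The 12 samples, 3 in each of 4 groups, were each measured on 1 Affymetrix mouse gene array. All mice carried the IL-21eGFP transgene on a bacterial artificial chromosome, a green fluorescent protein (GFP) reporter of the gene Il21, whose product drives B cell responses in germinal centres. The groups were GFP+ Tfh (CXCR5+PD1+), GFP- Tfh (CXCR5+PD1+), GFP- CXCR5+PD1- cells and GFP- CXCR5-PD1- cells, all sorted as CD4+ and negative for class II and Epcam. The sorting protocol names 3 of these populations, and CXCR5+PD1- cells are known from the titles alone. Neither the age of the mice nor whether a replicate is 1 animal or a pool is stated, so the p-values rest on the spread between these samples, which may be technical in part.

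Values are log2 expression, and the median of all probe sets on an array lay between 6.34 and 6.45. For GFP+ Tfh the titles say CXCR5+PD1+ but another label field says negative for both, and groups follow the titles. Cxcr5 averaged 8.95 ± 0.29 on GFP+ Tfh arrays, 8.21 ± 0.36 on GFP- Tfh arrays, 5.61 ± 0.37 on CXCR5+PD1- arrays and 5.71 ± 0.43 on CXCR5-PD1- arrays (SD, n = 3 each). Cxcr5 RNA in CXCR5+PD1- over CXCR5-PD1- cells thus differed by -0.10 ± 0.26 (limma adjusted p = 1), although the first gate was CXCR5+. Every array of both gates lay below the array median for Cxcr5, where a difference is compressed, and Cxcr5 passed the filter through its Tfh arrays. Pdcd1, which encodes PD1, averaged 9.02 ± 0.67 on GFP+ Tfh and 9.11 ± 0.34 on GFP- Tfh arrays. It averaged 7.09 ± 0.20 on CXCR5+PD1- and 6.87 ± 0.06 on CXCR5-PD1- arrays. For Cxcr5 and Pdcd1 each Tfh array lay above each PD1- array, which goes with the titles. Il21 averaged 10.60 ± 0.31 on GFP+ and 9.96 ± 0.34 on GFP- Tfh arrays, without overlap. Its difference of 0.63 ± 0.56 did not pass (limma adjusted p = 0.824). That SE includes the wider PD1- spread (SD 1.11 and 1.09). All 6 measured genes of CD4 T cells, the labelled cell type, lay above the array median on every array. Xist and Eif2s3y marked replicate 3 of each group as female and replicates 1 and 2 as male, so replicate 3 came from other animals than replicates 1 and 2. Scatter around the group means over the genes that passed the filter on low values (root mean square, log2) was 0.287 to 0.405 for GFP+ Tfh arrays and 0.163 to 0.204 for the others. The limma tests used 1 estimate of spread per gene over all 4 groups. SEs and p-values can thus be too large within the PD1- gates and too small within the Tfh gates.

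Cd55 has a close copy, Cd55b, next to it on chromosome 1 with 0 genes between them in RefSeq. The start regions of both are shown because the copies share much of their sequence while only Cd55 gave signal above the array median here. Sequences are those of RefSeq on GRCm38.p6, 5′ to 3′ on the gene's strand, from 250 bases before the start to 50 after it, and capitals mark CACCC or its reverse complement GGGTG, the core bound by Krüppel-like factors. The Cd55 sequence lies at chr1:130462695-130462994 and that of Cd55b at chr1:130422994-130423293, both on the minus strand.
Cd55: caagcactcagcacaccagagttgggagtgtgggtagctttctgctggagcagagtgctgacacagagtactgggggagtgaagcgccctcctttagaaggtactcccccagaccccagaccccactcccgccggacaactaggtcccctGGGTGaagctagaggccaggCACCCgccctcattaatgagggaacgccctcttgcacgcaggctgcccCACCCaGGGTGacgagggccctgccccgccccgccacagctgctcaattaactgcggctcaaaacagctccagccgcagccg
Cd55b: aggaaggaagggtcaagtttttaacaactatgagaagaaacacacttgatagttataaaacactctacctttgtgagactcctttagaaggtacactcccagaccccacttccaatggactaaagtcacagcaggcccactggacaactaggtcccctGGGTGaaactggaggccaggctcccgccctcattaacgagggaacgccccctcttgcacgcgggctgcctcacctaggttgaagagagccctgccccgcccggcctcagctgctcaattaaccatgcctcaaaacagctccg

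A global alignment paired 277 bases of the start regions of Cd55 and Cd55b, of which 213 (76.9%) were identical. The same alignment of Cd55 gave 61.7% with Cd46, 52.2% with Cr1l and 53.2% with Cd59a. Cd55 held 4 matches to CACCC on both strands together and Cd55b held 1. Of 32851 start regions of 300 bases in the table, 57.5% held at least 1 match and 3.1% at least 4. Cd59a held 3 matches, C5ar1 held 2, Cr1l and C3ar1 held 1 each and Cd46 held 0. The GC-box letters GGGCGG, again on both strands, occurred 2 times in Cd55 and 2 times in Cd55b. Of all start regions 35.7% held at least 1 such match and 19.5% at least 2. The letters TTCCNNGAA, with N for any base, were also searched and occurred 0 times in Cd55 and 0 times in Cd55b. Of all start regions 4.81% held them. A match is a run of letters and not a measured site.

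Cd55 separated the Tfh gates from the PD1- gates on every array. Cd55 read 6.03, 4.63 and 5.43 on GFP+ Tfh arrays, 6.14, 5.95 and 5.75 on GFP- Tfh arrays, 8.86, 9.20 and 9.42 on CXCR5+PD1- arrays and 9.26, 9.18 and 9.63 on CXCR5-PD1- arrays, for replicates 1, 2 and 3. All 6 Tfh arrays lay below the array median and all 6 PD1- arrays lay above it. The highest Tfh array was 2.72 log2 units below the lowest PD1- array, and 4.07% of the genes tested were lower in Tfh without overlap. In bulk samples, fewer cells with the RNA and less RNA per cell cannot be told apart.

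**Figure D1:**
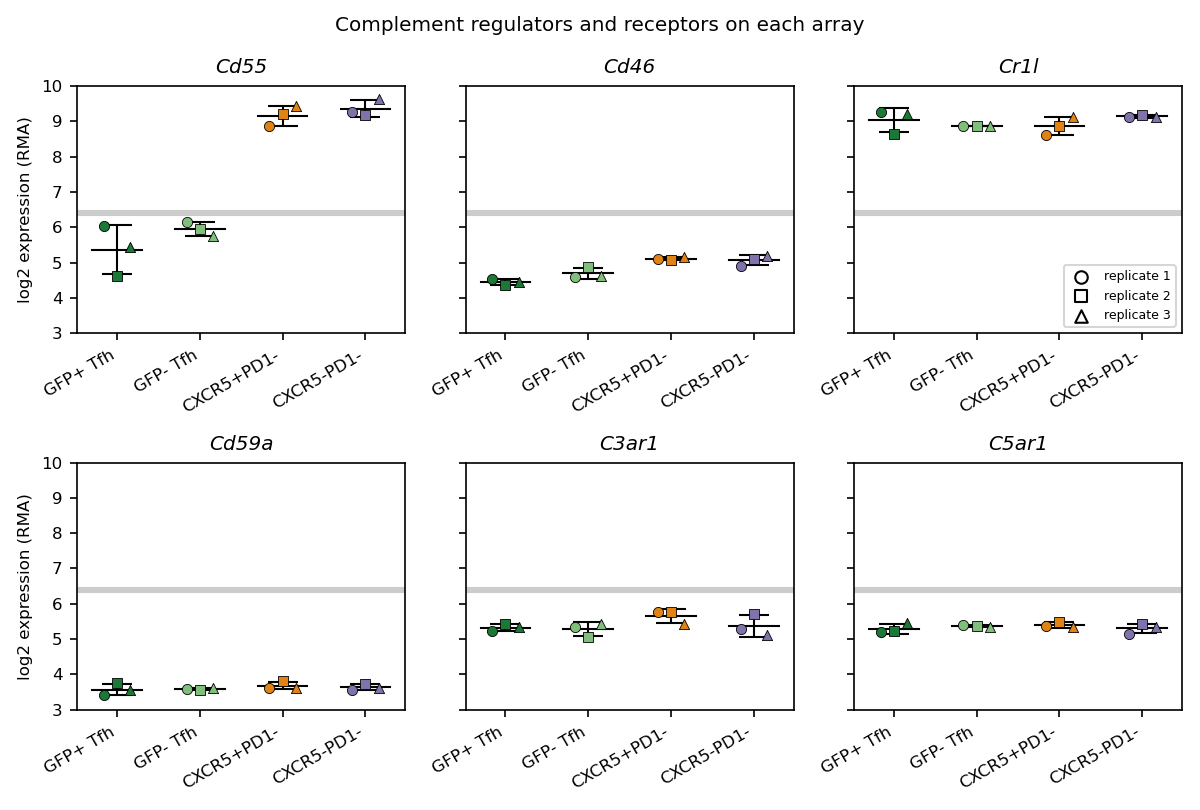
Log2 expression of the 6 genes (vertical axis) on each array of the 4 groups. Points are arrays with replicate numbers by shape, horizontal lines are means with SD bars (n = 3), and the grey band spans the array medians, 6.34 to 6.45. Cd55 lies at 4.63 to 6.14 in the Tfh gates and at 8.86 to 9.63 in the PD1- gates, while Cr1l lies between 8.62 and 9.26 on all 12 arrays.

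Averaged over gates, Cd55 stood at 5.65 ± 0.56 in Tfh and 9.26 ± 0.26 in PD1- arrays (SD, n = 6 each), a difference of -3.60 on the log2 scale, or 12.1-fold lower in Tfh. This was the lowest of the differences of 11240 genes tested. The next was Atp8b4, which encodes a phospholipid flippase, at -3.35, and then S1pr1, which encodes a lymphocyte egress receptor, at -2.93. By single gates, Cd55 in GFP+ Tfh differed by -3.79 from CXCR5+PD1- cells and by -3.99 from CXCR5-PD1- cells. In GFP- Tfh it differed by -3.21 from CXCR5+PD1- cells and by -3.41 from CXCR5-PD1- cells. Since low signals are compressed on these arrays, the fall can be larger than measured. With replicates 1 and 2 alone, the male arrays, the difference between the Tfh and the PD1- gates was -3.44.

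The differences of Cd55 within the Tfh and within the PD1- gates did not enter its choice. It passed the filter through its PD1- arrays, so the values within the Tfh gates compare signals that all lie below the array median, where a difference is compressed. Cd55 in GFP+ over GFP- Tfh differed by -0.58 ± 0.29 (SE, 95% interval -1.22 to 0.06) and did not pass (limma adjusted p = 0.683). GFP+ replicate 1 lay within the range of the GFP- arrays, while replicates 2 and 3 lay below it. Without GFP+ replicate 2, the lowest array, the difference was -0.22, and without GFP+ replicate 1 it was -0.92 (limma adjusted p = 0.0952). Cd55 in CXCR5+PD1- over CXCR5-PD1- cells differed by -0.20 ± 0.29 (95% interval -0.84 to 0.44; limma adjusted p = 1), with overlapping arrays. In both PD1- gates replicate 3 had the highest Cd55 of the 3 arrays, and in the GFP- Tfh gate it had the lowest. The order of the gates was thus GFP+ Tfh, GFP- Tfh, CXCR5+PD1- and CXCR5-PD1- from low to high, and of the neighbours in it only GFP- Tfh and CXCR5+PD1- cells stood apart.

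Cd55b, annotated in RefSeq as the transmembrane form, gave no signal above the array median on any array. Cd55b averaged 4.11 ± 0.09 on GFP+ Tfh arrays, 4.05 ± 0.08 on GFP- Tfh arrays, 4.23 ± 0.13 on CXCR5+PD1- arrays and 4.40 ± 0.13 on CXCR5-PD1- arrays. Its Tfh arrays, 3.98 to 4.21, overlapped its PD1- arrays, 4.12 to 4.48, and its difference of -0.24 ± 0.07 did not pass with no filter (limma adjusted p = 0.106). The probes of the 2 sets were not compared here, so whether they tell the copies apart was not tested. Cd55 also overlaps Cd55os, an antisense gene by its symbol, in RefSeq.

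Cr1l, which encodes CRRY, was the other gene of the 6 with signal well above the array median, on 12 of 12 arrays. Cr1l read 9.26, 8.64 and 9.20 on GFP+ Tfh arrays, 8.87, 8.87 and 8.88 on GFP- Tfh arrays, 8.62, 8.88 and 9.13 on CXCR5+PD1- arrays and 9.11, 9.19 and 9.11 on CXCR5-PD1- arrays. The ranges of all Tfh and all PD1- arrays covered each other almost fully. Both Tfh gates over both PD1- gates differed by -0.06 ± 0.12, with a 95% interval of -0.32 to 0.21 (limma adjusted p = 0.873), where 10.4% of the genes tested passed.

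Cr1l in GFP+ over GFP- Tfh differed by 0.16 ± 0.17 (95% interval -0.21 to 0.53; limma adjusted p = 0.859). In that comparison 0.0445% of the genes tested passed, 5 in all. Cr1l in CXCR5+PD1- over CXCR5-PD1- cells differed by -0.26 ± 0.17 (95% interval -0.63 to 0.11; limma adjusted p = 1), where limma called 0 genes (0%) and 137 had an unadjusted p under 0.05. A count of 137 is low for 11240 genes even if none differed, and the spread in this test includes that of the GFP+ Tfh arrays. Of the 6 genes, 0 passed within the Tfh or within the PD1- gates, and only Cd55 and Cr1l had passed the filter on low values.

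Cd46, the cofactor gene, lay below the array median on all 12 arrays and so was outside the main test. Cd46 read 4.52, 4.36 and 4.44 on GFP+ Tfh arrays, 4.59, 4.87 and 4.63 on GFP- Tfh arrays, 5.10, 5.07 and 5.16 on CXCR5+PD1- arrays and 4.90, 5.11 and 5.19 on CXCR5-PD1- arrays. Each of the 6 Tfh arrays was lower than each of the 6 PD1- arrays, with 0.035 log2 units between the nearest. Among genes outside the filter, 0.207% were lower in this way.

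The difference of Cd46 in both Tfh gates over both PD1- gates was -0.52 ± 0.08 (95% interval -0.69 to -0.35), and with no filter on low values it passed (limma adjusted p = 0.00157), where 5.55% of 19937 genes did. GFP+ Tfh arrays were also all lower than GFP- Tfh arrays, by -0.25 ± 0.11, a difference that did not pass (limma adjusted p = 0.698 with no filter, where 0.0301% passed). Among genes outside the filter, 1.15% were lower without overlap in that comparison. CXCR5+PD1- and CXCR5-PD1- arrays overlapped for Cd46, with a difference of 0.04 ± 0.11. At such signals the array gives no call of presence, and whether the values reflect Cd46 RNA was not tested. Cd46 neighbours Cr1l on chromosome 1 and overlaps it in RefSeq.

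Cd59a, the gene for the pore inhibitor, lay far below the array median on every array, by differences of -2.93 to -2.65. It ranged from 3.41 to 3.75 on the Tfh arrays and from 3.56 to 3.80 on the PD1- arrays, which overlapped. The difference between the gates was -0.08 ± 0.07 and did not pass with no filter (limma adjusted p = 0.753). Its neighbour and copy Cd59b ranged from 4.12 to 4.73 on Tfh and from 4.20 to 4.59 on PD1- arrays, also below the array median throughout.

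The receptors for complement fragments also stayed below the array median on every array. C3ar1 averaged 5.32 ± 0.11 on GFP+ Tfh arrays, 5.28 ± 0.20 on GFP- Tfh arrays, 5.65 ± 0.20 on CXCR5+PD1- arrays and 5.37 ± 0.30 on CXCR5-PD1- arrays (SD, n = 3 each). C5ar1 ranged from 5.19 to 5.45 on the Tfh arrays and from 5.15 to 5.48 on the PD1- arrays. Neither gene had gates that stood apart. Both Tfh gates over both PD1- gates differed by -0.21 ± 0.12 for C3ar1 and by -0.02 ± 0.07 for C5ar1, and with no filter neither passed (limma adjusted p = 0.475 and 0.967). C5ar2, the gene for the other C5a receptor, also lay below the array median on every array. C5ar2 averaged 6.15 ± 0.11 on GFP+ Tfh arrays, 5.97 ± 0.13 on GFP- Tfh arrays, 6.12 ± 0.14 on CXCR5+PD1- arrays and 6.08 ± 0.03 on CXCR5-PD1- arrays.

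**Figure D2:**
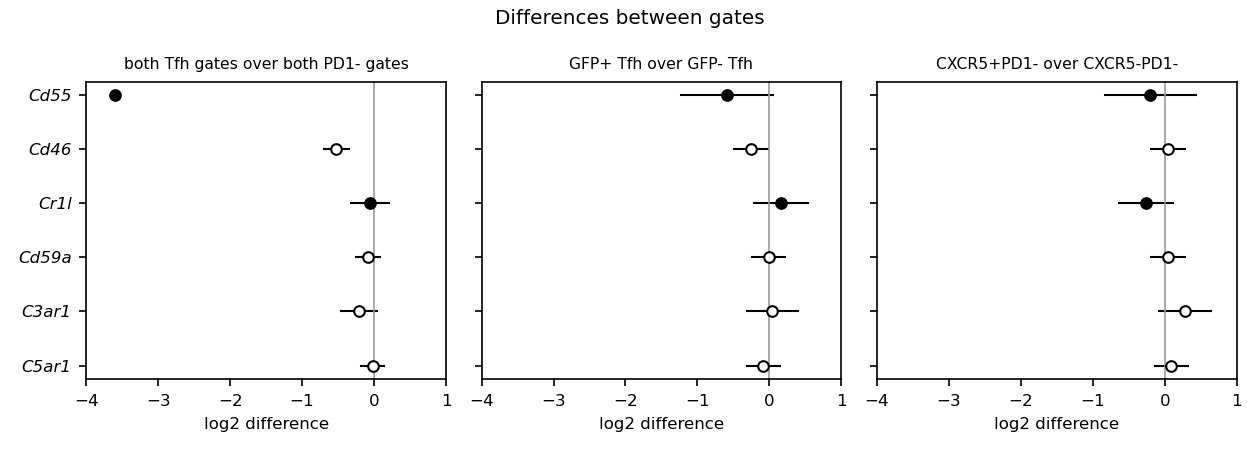
Log2 differences (horizontal axis) of the 6 genes in 3 comparisons, with 95% intervals from limma. Filled points passed the filter on low values and open points did not, and Cd55 has no interval in the first panel, where it was chosen. Cd55 lies at -3.60 and Cd46 at -0.52 in the Tfh gates over the PD1- gates, and the intervals of Cr1l include 0 in all 3 panels.

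Myeloid cells and B cells carry complement receptors, and their markers were set beside these values. The mean of 18 myeloid genes relative to the array median was -0.564 to -0.416 in GFP+ Tfh, -0.531 to -0.474 in GFP- Tfh, -0.610 to -0.526 in CXCR5+PD1- cells and -0.770 to -0.403 in CXCR5-PD1- cells. Between 3 and 7 of the 18 lay above the array median on an array, and of 7 tested 0 passed in the Tfh over the PD1- gates (1 had an unadjusted p under 0.05). Likewise 0 of 4 epithelial and 0 of 4 stromal genes tested passed in limma, with 1 each at an unadjusted p under 0.05. With 10.4% of all genes tested passing, lists this short say little by a count of 0. Lyz2, a lysozyme gene of myeloid cells, was uneven within groups. Lyz2 read 7.33, 7.64 and 6.27 on GFP+ Tfh arrays, 5.56, 5.83 and 5.72 on GFP- Tfh arrays, 5.44, 5.92 and 5.45 on CXCR5+PD1- arrays and 6.05, 7.10 and 5.59 on CXCR5-PD1- arrays. In GFP+ Tfh and CXCR5-PD1- cells replicate 2 had both the most Lyz2 and the highest C3ar1. In CXCR5+PD1- cells replicate 2 had the most Lyz2, but its C3ar1 of 5.769 was level with the 5.767 of replicate 1. In GFP- Tfh replicate 2 had the most Lyz2 and the lowest C3ar1. Lyz2 is 1 of the 7 myeloid genes tested, and in GFP+ Tfh none of the others was highest in replicate 2. Of the 7 myeloid genes tested, 0 passed in limma in GFP+ over GFP- Tfh and 2 had an unadjusted p under 0.05, in opposite directions. In that comparison 0.0445% of all genes tested passed, and 828 of 11240 had an unadjusted p under 0.05. Lyz2 differed by 1.38 ± 0.38 (limma adjusted p = 0.416) and Cybb, an oxidase gene of phagocytes, by -1.76 ± 0.64 (limma adjusted p = 0.569). The other 5 lay between -0.22 (Fcgr3) and 0.14 (Cd68). Of 11 B cell genes on the array 3 were tested, and Pax5, the B lineage regulator, rose by 0.30 ± 0.07 in the Tfh gates (limma adjusted p = 0.0193; past the threshold in 16 of 21 alternatives). Pax5 lay above the array median on the 3 GFP+ Tfh arrays alone and passed the filter through them. The other tested genes, Cd79b at 0.02 ± 0.11 and Cd22 at 0.18 ± 0.08, did not pass. Cr2, the gene of complement receptors 1 and 2 in mice, ranged from 5.03 to 5.41 over the 12 arrays, below the array median. The part of other cells in these values was not tested.

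Of 3 tested genes in a list of other complement receptors and partners, 1 passed in the Tfh over the PD1- gates. This was Adgre5, lower in Tfh, where 5.33% of all genes tested passed as lower. Adgre5 was listed as a partner, since it encodes CD97, an adhesion receptor that binds CD55. Adgre5 read 8.88, 8.43 and 9.06 on GFP+ Tfh arrays, 9.50, 9.14 and 9.36 on GFP- Tfh arrays, 10.67, 10.38 and 10.70 on CXCR5+PD1- arrays and 10.65, 10.39 and 10.81 on CXCR5-PD1- arrays. Adgre5 fell by 1.54 ± 0.13 in both Tfh gates over both PD1- gates (limma adjusted p = 1.44e-05), and each Tfh array lay below each PD1- array. Of the genes tested, 4.07% were lower in this way. GFP+ Tfh arrays also all lay below GFP- Tfh arrays for Adgre5, by -0.54 ± 0.18, which did not pass (limma adjusted p = 0.510), and 5.65% of the genes tested were lower there without overlap. The PD1- gates overlapped, with a difference of -0.03 ± 0.18. Adgre5 overlaps Ddx39a in RefSeq, and where its probes lie was not tested.

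Among genes of the soluble cascade, 23 of 25 were on the array by symbol and 8 passed the filter. Masp2, a protease of the lectin pathway, was the 1 of these 8 that fell and 0 rose, a share near the 10.4% of all genes tested that passed, and the median difference of the 8 was 0.01, against -0.02 over all genes tested. Masp2 read 6.29, 6.29 and 6.02 on GFP+ Tfh arrays, 6.38, 6.49 and 6.34 on GFP- Tfh arrays, 7.02, 7.12 and 7.18 on CXCR5+PD1- arrays and 6.69, 6.82 and 7.23 on CXCR5-PD1- arrays. Of its 6 Tfh arrays 5 lay below the array median, and it fell by 0.71 ± 0.10 in the Tfh over the PD1- gates (limma adjusted p = 0.000945). Masp2 passed the filter through its PD1- arrays, which all lay above the array median. Masp2 overlaps Tardbp in RefSeq, and where its probes lie was not tested. The next by p were C4a at -0.16 ± 0.09, Mbl2 at 0.12 ± 0.09 and Mbl1 at 0.09 ± 0.07, none past the threshold.

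Of the 9 soluble or intracellular regulators, 8 were on the array and 1 passed the filter. That gene, C1qbp, which encodes a mostly mitochondrial protein that binds C1q, differed by -0.41 ± 0.20 in the Tfh over the PD1- gates and did not pass (limma adjusted p = 0.279). Without GFP+ replicate 1 it did (difference -0.61, limma adjusted p = 0.00998). Beside Adgre5, 2 of the 11 other receptors and partners passed the filter. These were the integrin gene Itgb2 at 0.04 ± 0.09 and Ctsl, a protease that cleaves C3 in human T cells, at 0.05 ± 0.14, both short of the threshold.

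CD55 and CD59 are held in the membrane by a glycosylphosphatidylinositol (GPI) anchor, so the genes that make this anchor and other anchored proteins were set beside Cd55. All 26 anchor genes on the array were tested and 0 passed in limma in the Tfh over the PD1- gates (4 had an unadjusted p under 0.05), where 10.4% of all genes tested passed, with a median difference of 0.01 against -0.02 over all genes tested. The smallest p belonged to Pigm (-0.35 ± 0.11, limma adjusted p = 0.0683), Pigw (-0.33 ± 0.11), Pigx (0.48 ± 0.16) and Pigb (-0.30 ± 0.12). Pigm passed with the replicate block (limma adjusted p = 0.0299), as did Pigx (limma adjusted p = 0.0265), and their directions were opposite.

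Of 11 other anchored proteins tested, 3 rose and 2 fell, with a median of -0.01, where 5.05% of all genes tested rose and 5.33% fell. Nt5e, which encodes the adenosine-forming enzyme CD73, rose by 1.93 ± 0.19 in the Tfh over the PD1- gates (limma adjusted p = 5.58e-05). Nt5e read 9.69, 8.95 and 9.02 on GFP+ Tfh arrays, 9.46, 9.49 and 9.37 on GFP- Tfh arrays, 7.69, 7.23 and 7.03 on CXCR5+PD1- arrays and 7.77, 7.80 and 6.85 on CXCR5-PD1- arrays. Izumo1r, which encodes folate receptor 4, rose by 1.05 ± 0.20, and Cd160, a receptor for HVEM, rose by 0.48 ± 0.09. Cd160 lay above the array median on every Tfh array but on only 1 CXCR5+PD1- array and 0 CXCR5-PD1- arrays. It thus passed the filter through the gates where it was high. Cd24a, a sialoglycoprotein gene, differed by -1.63 ± 0.31 and Plaur, the urokinase receptor gene, by -0.64 ± 0.17 (limma adjusted p = 0.00527 and 0.0325), and both overlapped between the gates, as did Cd160. Plaur passed in 12 of 22 alternatives. Anchored proteins thus went both ways where Cd55 was lower. In GFP+ over GFP- Tfh and in CXCR5+PD1- over CXCR5-PD1- cells 0 genes of the complement and anchor lists passed in limma. Of all genes tested, 0.0445% passed in the first comparison and 0% in the second. At an unadjusted p under 0.05 the first held Adgre5 and 1 anchor gene, and the second 2 anchor genes. Among all 11240 genes tested, 828 in the first and 137 in the second had such a p.

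**Figure D3:**
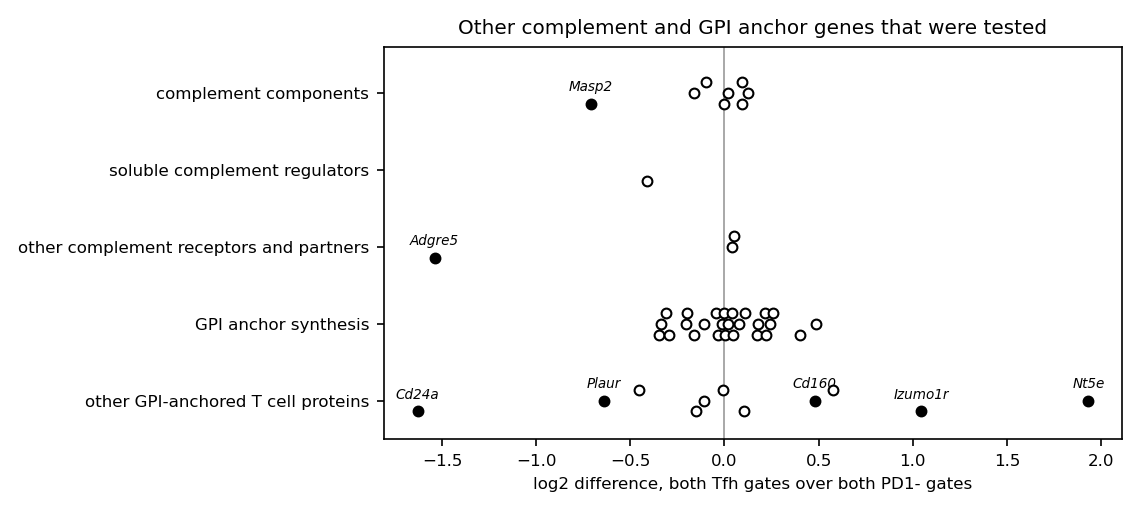
Log2 differences in both Tfh gates over both PD1- gates (horizontal axis) of the tested genes of 5 lists, with points spread vertically for clarity. Filled, named points passed limma's adjusted p of 0.05 and open points did not. Adgre5 lies at -1.54 and Masp2 at -0.71, and 0 of 26 anchor genes passed.

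The genes whose values moved most like those of Cd55 over the 12 arrays were found by Pearson correlation, which the large step between Tfh and PD1- arrays dominates and which is given as a description. Of 11239 other genes tested, 55 (0.49%) had r of at least 0.95 and 31 (0.28%) had -0.95 or less. Predicted genes, small RNAs and receptor segments were skipped in naming genes, which left 10449 to rank. The closest of these were Smc6 (r = 0.987), a gene of a DNA repair complex, Kbtbd11 (r = 0.986), the lysosomal sterol carrier gene Npc2 (r = 0.985), Prkd3 (r = 0.983), a protein kinase D gene, and S1pr1 (r = 0.983). The most opposite were Tox2 (r = -0.979), a transcription factor gene of Tfh cells, Tbc1d4 (r = -0.978), a regulator of Rab proteins, and Nav2 (r = -0.976). Within the 6 Tfh arrays alone the r of the 5 closest was 0.588 to 0.857, and within the 6 PD1- arrays 0.383 to 0.955.

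The size of the step differed among these genes. In the Tfh over the PD1- gates the difference was -2.93 ± 0.17 for S1pr1, -1.42 ± 0.10 for Kbtbd11, -1.41 ± 0.11 for Smc6, -1.30 ± 0.09 for Prkd3 and -1.15 ± 0.11 for Npc2, and all 5 passed in limma. Tox2 rose by 1.78 ± 0.15, Tbc1d4 by 1.63 ± 0.09 and Nav2 by 2.14 ± 0.13. The choice of the 5 closest was unsteady, since 1 to 5 of them stayed among the closest 5 when 1 array was left out, and 1 did without GFP+ Tfh replicate 3.

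**Figure D4:**
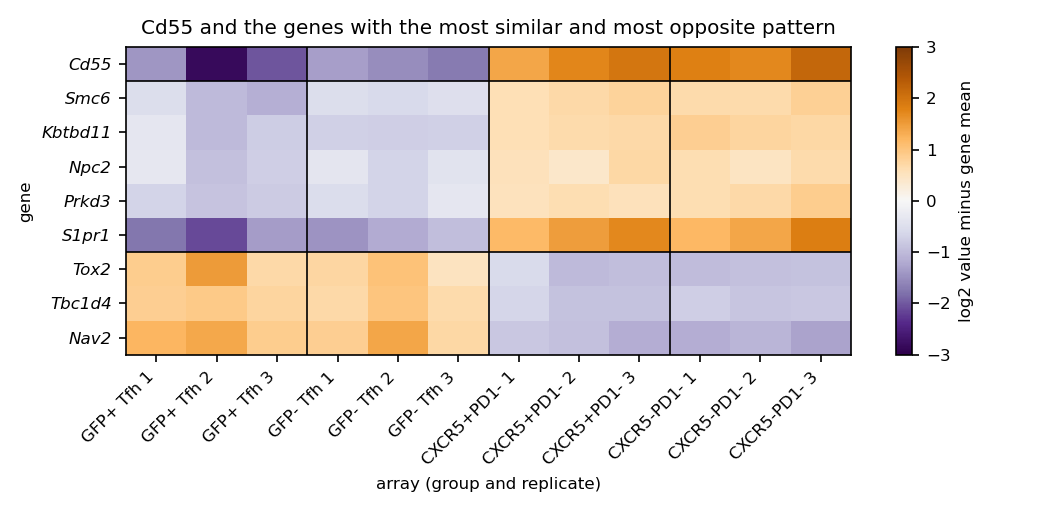
Log2 value minus the gene's mean over the arrays (colour) for Cd55, the 5 genes with the highest and the 3 with the lowest correlation to it (rows), on the 12 arrays (columns). Cd55 and S1pr1 show the deepest step between the 6 Tfh and the 6 PD1- arrays, and GFP+ replicate 2 has the lowest Cd55, 4.63.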

How the data were processed

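Per the labels' protocols, total RNA of sorted cells was made into cDNA with a whole-transcript kit and hybridised to 1 array per sample. The authors deposited log2 expression values for 34760 probe sets; RMA and oligo are the tools listed in the submitters' processing notes, without versions. RMA makes the arrays' distributions alike and compresses low signals. No genome build of the array is given, so no gene coordinates from it are used.

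GEO's platform annotation named the probe sets, and RefSeq (GRCm38.p6) updated symbols by gene identifier; 21640 had 1 symbol (21553 matched), and the 1321 with several and 11799 unnamed ones were left out. The probe set with the highest mean was used per gene. Genes above the array median on at least 3 arrays were tested, 11240 of 19937. The 3 contrasts are orthogonal and come from 1 linear model of all 12 arrays (limma 3.58.1, R 4.3.3), with Benjamini-Hochberg adjustment at 0.05 over the genes tested, and SEs are moderated. Members and lists were chosen with earlier results of these data known. Named genes are the members, those of each list that passed or up to 4 with the smallest p, the gate markers, the 5 most and 3 least like Cd55, and neighbours of Cd55 in the order of falls. Start regions were aligned with Biopython 1.88. The code was tested on simulated data. As alternatives, the low-value filter, the variance model, array weights, cyclic loess, a replicate or sex block, the probe set rule and leaving out arrays were tried. The number of arrays limits the precision.

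Same-numbered arrays deviated together in the PD1- gates (correlations of 0.210 to 0.353 for the 3 pairs). Between GFP+ and GFP- Tfh the correlations were 0.253, 0.041 and 0.283 for replicates 1, 2 and 3. Arrays of different numbers were not compared, so whether the numbers pair the arrays was not tested. The main fit used no pairing. Over all pairs of groups 8 of 18 correlations were over 0.1. No 2 arrays held identical values.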

Additional observations from a re-analysis of the deposited data

How the results depend on the processing

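The fall of Cd55 in both Tfh gates ranged from -3.81 to -3.42 over 22 alternatives, and Cr1l did not pass in any comparison under any of them. With no filter 1 member, Cd46, passed in the Tfh over the PD1- gates, against 0 in the main fit; under the other 21 alternatives the count was 0, as Cd46 was not tested there. The members called were 0 in the other comparisons throughout. Cd55 in GFP+ over GFP- Tfh came nearest to the threshold with 1 weight per array (-1.14, limma adjusted p = 0.0591; 0.0591 to 1 over its alternatives). The genes called in GFP+ over GFP- Tfh were 5, against 3 with 1 weight per group, 95 with 1 weight per array, and 0 with only the groups compared or replicates 1 and 2 alone. On leaving out 1 array this count was 3 (GFP- replicate 1) to 237 (GFP+ replicate 1). In the Tfh over the PD1- gates they were 1167, against 1981 with 1 weight per array and 883 to 1495 on leaving out 1 array, and 351 of 870 were lower with replicates 1 and 2 alone against 599 of 1167. With the replicate block the counts were 6, 0 and 1247. The calls compared were those of the 6 genes in each comparison and of a part of the other named genes in the Tfh over the PD1- gates. Among these only Pigm and Pigx changed, and other calls were not compared. For named genes outside the 6, whose alternatives were added after seeing the data, Plaur, Pax5 and Cd3g passed in 12 of 22, 16 of 21 and 9 of 22 alternatives, and Adgre5, Nt5e, Izumo1r and Cd24a in all 22. Of the 5 genes most like Cd55, 3 stayed among the closest 5 with cyclic loess. Fitting only the groups compared is the main fit itself for the Tfh over the PD1- gates. Signals below the array median limit what can be said of Cd46, Cd59a, C3ar1 and C5ar1.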
